A study of Mus musculus with 4 samples.

Results

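Ccr7, S1pr1, Klf2, Foxo1 and Il7r, 5 genes of lymph node homing and lymphocyte quiescence, were followed through 6 lists of differentially accessible chromatin regions. A row of a list was given to a gene when its midpoint lay inside that gene, or lay outside all protein-coding genes and within 100 kb of the nearest gene start or end (GRCm38 annotation). This gave 144 of 92372 rows, and merging rows that overlapped by at least 1 bp gave 79 of 52537 regions. Accessibility was measured by ATAC-seq, in which a transposase cuts open DNA, in CD4 T cells from a mouse model of allergic asthma, in which house dust mite (HDM) extract was given for sensitization and again as challenge. Every population came from HDM-treated mice at day 15, and their strain, sex and age were not stated in the labels used here. Th2 cells were sorted as CD3+CD4+CD44+ST2+CD30L+, memory cells that are not Th2 (called other effector below) as CD3+CD4+CD44+ST2-CD30L+ and regulatory T cells (Treg) as CD3+CD4+CD25hiCD30L-, all from lung with airways. Naive cells were CD3+CD4+CD44lo cells from mLN (not spelled out there) by the sorting protocol, although their source and tissue labels name lung. If they came from mLN, tissue and cell state cannot be told apart in any comparison with naive cells. The protocol gives 3 biological replicates of 1000 cells per population.

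CCR7 is the chemokine receptor that brings naive T cells into lymph nodes, along ligands made by stromal cells, and S1PR1 is the sphingosine 1-phosphate receptor through which they leave again. IL7R is the alpha chain of the receptor for interleukin 7, a survival cytokine of resting T cells. KLF2 is a zinc finger factor that keeps T cells quiescent and is known to activate S1pr1. FOXO1 is a forkhead factor that is kept out of the nucleus by Akt signalling, and in resting T cells it is known to act on Klf2, Ccr7 and Il7r.

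All folds below are the log2 folds of the authors' deposited tables, 1 table for each pair of populations. The tables hold neither replicate values nor counts nor p-values. Depth is therefore unknown, the folds carry no error, and no difference could be tested. Each row is a difference that the authors listed, and a region missing from a table was not shown to be equal in its 2 populations. No table holds a fold smaller than 3.41 in size. Genes of each lineage that are no members gave the direction: Il1rl1, Il4, Il5, Il13 and Pparg had 27 rows higher in Th2 than naive cells and 0 lower, Foxp3, Il2ra, Ikzf2 and Ctla4 had 18 higher in Treg than naive cells and 0 lower, and Tcf7, Lef1, Satb1 and Bach2 had 62 higher in naive than Th2 cells and 1 lower. Other effector cells stood apart, as the lower population in all rows of their 3 tables, so those tables can show no other direction. Where the naive tables list the same interval against other effector and Th2 cells, the 2 folds differ by the other effector minus Th2 difference. This was 0.18 to 0.19 at 60.3% of 4835 such intervals and never above 0.19. In the same way, other effector minus Treg was 0.00 to 0.01 at 65.2% of 3025 intervals and never above 0.01. At these intervals other effector cells were thus never above Th2 or Treg cells but for a constant. Other effector minus naive was within 0.01 of 0.17 at 81.9% of 3896 intervals from the Th2 tables. From the Treg tables this was so at 87.3% of 2761 intervals. There was no such ceiling against naive cells, as the difference reached 1.09 and 0.88, each at 1 interval. The low level that other effector cells most often shared with Th2 or Treg cells is called the base below. B cell genes moved with naive over other effector cells: all 5 of Cd79a, Cd79b, Ms4a1, Ebf1 and Pax5 had a row there, 19 in all. Of these only Ebf1 and Pax5, with 5 rows, were higher in naive than Th2 cells, only Ebf1, with 2, was higher in naive than Treg cells, and Cd79a, Cd79b and Ms4a1 had 0 in both. CD8 and natural killer cell genes did so too, with 15 rows in 5 of 6 genes for naive over other effector cells. They had 7 in 3 genes for naive over Th2 cells and 2 in 2 genes for naive over Treg cells. Of these rows, 3, 3 and 1 were at Cd8b1. In Treg over other effector cells they had 9 rows in 4 genes, and in Th2 over other effector cells 4 in 1 gene. The B cell genes had rows in 3 of 5 genes there too, 3 rows in Treg and 4 in Th2 over other effector cells. Of 6 myeloid genes, 3 had 11 rows in naive over other effector, 5 had 21 in Th2 over other effector and 4 had 7 in Treg over other effector cells. Of the T cell genes Cd3e, Cd3g, Cd4, Cd2 and Cd28, all but Cd4 had a row in naive over other effector cells, 26 in all. The same 4 genes had 27 rows in Treg over other effector cells. Cd2 and Cd28 had 7 in Th2 over other effector cells. Over all 21900 genes, 29.8% had a row in naive, 52.5% in Th2 and 48.7% in Treg over other effector cells. In naive over Th2 cells 11.7% had a row, and in naive over Treg cells 8.38%. The part of B, CD8, natural killer or myeloid cells in the member results was not tested.

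The promoters of Klf2, Foxo1 and Il7r are shown because these were the 3 members with a reference promoter sequence. A listed region lies over the transcript start of each. Printed are the 250 bases before the start, 5′ to 3′ on the gene's strand, from RefSeq (GRCm38). Ccr7 and S1pr1 had no such sequence and are named only, although a listed region lies over the upper end of each gene. The Klf2 window is chr8:72318812-72319061 (plus strand), that of Foxo1 chr3:52268087-52268336 (plus strand) and that of Il7r chr15:9529877-9530126 (minus strand). Capitals mark the MEF2 motif in Klf2 and the ETS motif CAGGAAG, here read on the other strand, in Il7r.
Klf2: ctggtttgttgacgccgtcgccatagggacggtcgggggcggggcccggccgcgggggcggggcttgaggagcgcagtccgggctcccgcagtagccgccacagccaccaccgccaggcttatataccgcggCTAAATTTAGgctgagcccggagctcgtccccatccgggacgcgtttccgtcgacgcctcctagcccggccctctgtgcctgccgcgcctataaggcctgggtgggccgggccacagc
Foxo1: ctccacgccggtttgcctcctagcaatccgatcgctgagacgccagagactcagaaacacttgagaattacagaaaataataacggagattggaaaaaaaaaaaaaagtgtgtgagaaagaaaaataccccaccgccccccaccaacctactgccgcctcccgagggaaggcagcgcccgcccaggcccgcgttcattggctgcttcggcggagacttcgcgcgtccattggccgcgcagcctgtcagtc
Il7r: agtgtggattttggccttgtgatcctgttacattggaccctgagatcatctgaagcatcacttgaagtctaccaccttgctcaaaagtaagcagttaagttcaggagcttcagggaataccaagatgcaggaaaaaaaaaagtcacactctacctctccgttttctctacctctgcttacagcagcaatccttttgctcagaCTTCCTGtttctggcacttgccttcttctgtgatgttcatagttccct
Listed regions covered all 250 bases at Klf2 and at Foxo1, and 175 of the 250 at Il7r. The Klf2 window held 71.2% G and C, above 92.7% of the 32851 promoter windows of the table, that of Foxo1 held 56.0% and that of Il7r 44.0%, against a median of 52.4%. On both strands, the forkhead letters GTAAACA occurred in 3.17% of all windows of this length, the KLF letters CACACCC in 6.93% and the ETS letters CCGGAAG in 6.91%, and none occurred in these 3 windows. The MEF2 motif, 109 to 118 bases before the start in Klf2, occurred in 0.508% of all windows, and CAGGAAG, 42 to 48 bases before the start in Il7r, in 10.8%. Both were added after the letters had been read. MEF2 factors are known to activate Klf2, and ETS family factors to act at the Il7r promoter. A match of letters is a description and shows no binding.

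Most member regions were listed as higher in naive than other effector cells. This direction held 54 of the 79 regions (68.4%), in all 5 genes, against 33.7% of all regions of the series. The median fold of those 54 rows was 6.28, against 5.41 over all 17700 rows. In naive over Th2 cells the members had 18 regions (22.8%) against 9.21% of all, and in Th2 over naive cells 1 (1.27%) against 9.67%. In naive over Treg cells they had 8 (10.1%) against 5.76%, and in Treg over naive cells 1 (1.27%) against 6.64%. Treg over other effector cells held 35 (44.3%) against 46.7%, which is close to the background, and Th2 over other effector cells 20 (25.3%) against 53.2%. Between Treg and Th2 cells, both from lung, 5 regions (6.33%) were higher in Treg than Th2 cells against 3.34%, and 1 (1.27%) higher in Th2 than Treg cells against 6.72%. A region can be listed in several directions, so the shares do not add up to 100%.

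**Figure D1:**
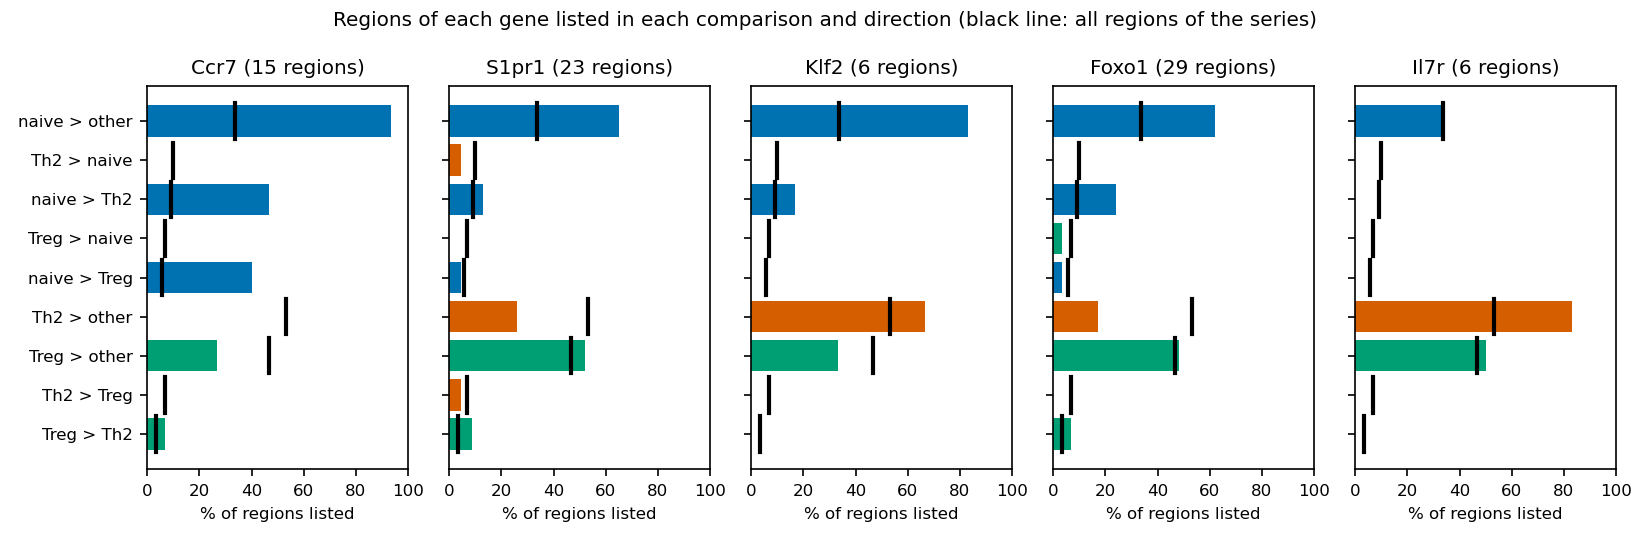
Share of each gene's merged regions (horizontal axis, percent) listed in each comparison and direction (vertical axis), with bars coloured by the higher population and a black line at the share over all 52537 regions. For Ccr7 the naive bars reach 93.3%, 46.7% and 40.0% and the Th2 bars are at 0, whereas Il7r has bars only against other effector cells.

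Members differed in how far they were listed without the tables of other effector cells. Of the 79 regions, 25 were listed in a comparison among naive, Th2 and Treg cells. This is close to the share over the whole series, 16553 of 52537 regions. By gene the counts were 9 of 15 at Ccr7, 9 of 29 at Foxo1, 6 of 23 at S1pr1, 1 of 6 at Klf2 and 0 of 6 at Il7r. Regions per 10 kb of the territory from which a gene could draw rows were 2.30 at Ccr7, 1.39 at Klf2, 1.20 at S1pr1, 1.10 at Foxo1 and 0.88 at Il7r. Those territories were 65.3, 43.1, 191.2, 263.3 and 68.0 kb. Of the member regions 38.0% lay inside a gene, against 60.2% of all regions, with wide differences among members: 1 of 23 at S1pr1, 1 of 6 at Klf2, 4 of 15 at Ccr7, 19 of 29 at Foxo1 and 5 of 6 at Il7r. The median width was 528 bp for member regions and 497 bp for all.

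Ccr7, the lymph node entry receptor gene (gene ID 12775, chromosome 11, 99144199 to 99155077), had rows with naive cells higher in all 3 naive tables, as did S1pr1 and Foxo1, and the most of the 5 genes in naive over Treg cells. In the authors' deposited tables, naive cells were higher than other effector cells at 14 of its 15 regions, with folds from 5.42 to 9.0 and a median of 6.86. They were higher than Th2 cells at 7, with folds of 6.09, 6.12, 6.16, 6.22, 7.36, 7.38 and 9.19, and higher than Treg cells at 6, with folds of 4.30, 4.35, 5.03, 6.87, 7.19 and 8.40. In this order the regions were 93.3%, 46.7% and 40.0% of those of Ccr7, against 33.7%, 9.21% and 5.76% of all regions. By number of rows Ccr7 ranked 15 among all genes in naive over Treg cells, 26 in naive over Th2 cells, as did Foxo1, and 60 in naive over other effector cells, after Foxo1 at 27 and S1pr1 at 45, ties sharing a rank. Not 1 of its regions was higher in Th2 than other effector cells, against 53.2% of all regions. Treg cells were higher than other effector cells at 4 (26.7%, against 46.7% of all regions), with folds of 3.82, 4.34, 5.85 and 6.31. Of these 4, 1 at 99130765 to 99131051 was not listed for naive cells. No row of Ccr7 had naive cells lower than another population.

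The region over the upper end of Ccr7, at 99154695 to 99155615, was 8.96 higher in naive than other effector cells. Treg cells were 5.85 higher than other effector cells over 99154695 to 99155432 of it, and neither the naive and Th2 nor the naive and Treg table listed it. The largest Ccr7 fold lay outside the gene at 99170611 to 99171427, with its midpoint 15942 bp from the upper end. Naive cells were 9.0 above other effector and 9.19 above Th2 cells there, and the Treg tables did not list it. At 99136387 to 99137070, 7470 bp below the lower end, naive cells were 8.39 above other effector, 8.40 above Treg and 6.16 above Th2 cells. Other effector minus Treg was thus 0.01 there and other effector minus Th2 -2.23. At 99162707 to 99163784, about 8168 bp beyond the upper end, naive cells were 8.35 above other effector and 6.22 above Th2 cells. Within that region, at 99162971 to 99163505, Treg cells were 6.31 above other effector and 4.41 above Th2 cells. The Treg and Th2 table lists this region and not the one below the gene, where the difference by subtraction is under the smallest fold of that table, 3.95.

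Over Ccr7, Th2 cells shared the base of other effector cells at 5 of the 7 intervals listed in both naive tables, and Treg cells at 3 of 6. At the 3 others, other effector minus Treg was -0.91, -1.60 and -2.09. Across the members, Th2 cells shared the base at 13 of 18 intervals and Treg cells at 4 of 8. At such intervals the fold gives the level of naive cells above the base and cannot rank how closed the region was in the lower population.

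**Figure D2:**
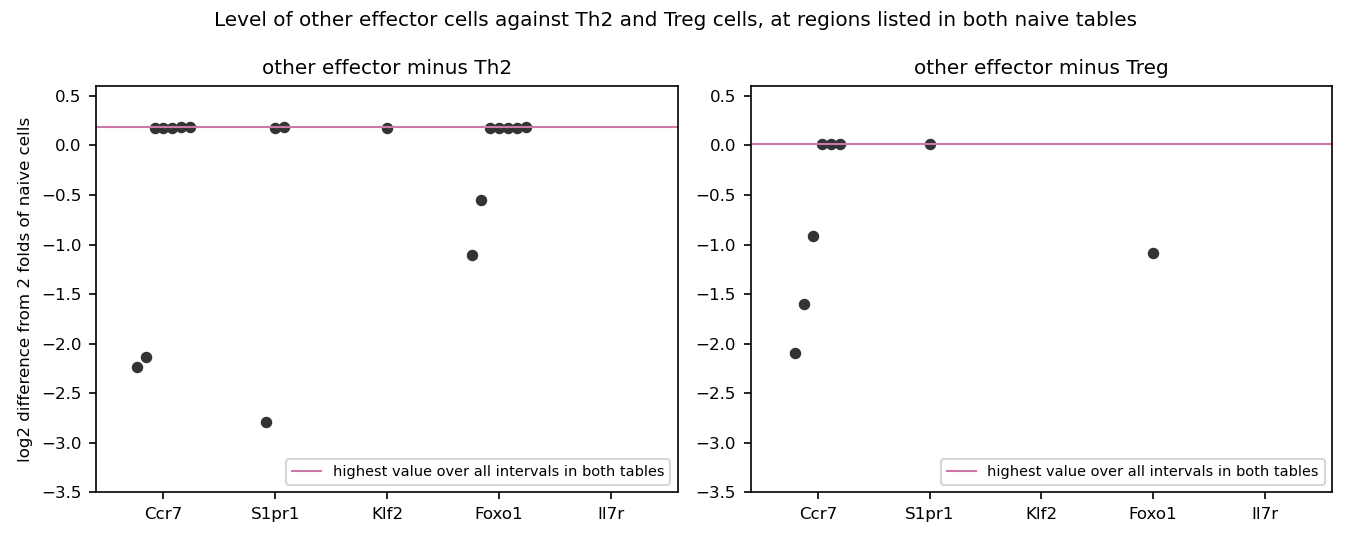
Level of other effector cells minus that of Th2 cells (left) and Treg cells (right), in log2 units, from the difference of 2 folds of naive cells on the same interval, with 1 point per member interval and a line at the highest value found over all intervals of the series. At Th2 cells 13 of 18 points lie on the line at 0.19 or within 0.01 of it, and at Treg cells 4 of 8 lie on the line at 0.01.

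S1pr1, the egress receptor gene (gene ID 13609, chromosome 3, 115710433 to 115715055), had 42 rows in 23 regions, 22 of them outside the gene, from 49088 bp below it to 86008 bp above it. In the authors' deposited tables, naive cells were higher than other effector cells at 15 regions (folds 5.0 to 9.11, median 6.20), Treg cells at 12 (13 rows, folds 4.02 to 7.40) and Th2 cells at 6 (folds 4.14 to 6.49). These were 65.2%, 52.2% and 26.1% of S1pr1 regions, against 33.7%, 46.7% and 53.2% of all regions. All 3 populations were above other effector cells at the upper gene end: naive cells by 7.85 at 115714503 to 115715708, and Treg and Th2 cells by 6.96 and 6.22 at 115714677 to 115715230. No comparison among these 3 listed that region, and Treg minus Th2 was 0.74 there by subtraction. The highest S1pr1 level was at 115682365 to 115683252, 27624 bp below the gene, with naive cells 9.11 and Treg cells (115682365 to 115683195) 7.40 above other effector cells and no row for Th2 cells.

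Differences among naive, Th2 and Treg cells were listed at 6 S1pr1 regions, 1 of them inside the gene. At 115800824 to 115801303, with its midpoint 86008 bp above the gene, naive cells were 7.62 and Treg cells 5.78 above Th2 cells, which shared the base of other effector cells. The interval at 115675642 to 115676169, 34528 bp below the gene, was 4.92 higher in Treg than Th2 cells and 5.12 higher in Treg than other effector cells, with no row for naive cells. Naive cells were also 4.62 above Th2 cells at 115799318 to 115799908 and 6.39 above them inside the gene at 115711406 to 115711658. The only S1pr1 region higher in naive than Treg cells lay at 115702060 to 115702387, with a fold of 5.01. In contrast, 115789190 to 115789534, 74307 bp above the gene, was higher in Th2 cells by 6.66 over naive, 6.49 over other effector and 6.49 over Treg cells. It was the only region of the 5 genes listed as higher in Th2 than naive or Treg cells, and the neighbouring regions at 115793209 to 115794034 and 115800824 to 115801303 were higher in naive than other effector cells by 7.96 and 7.44.

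**Figure D3:**
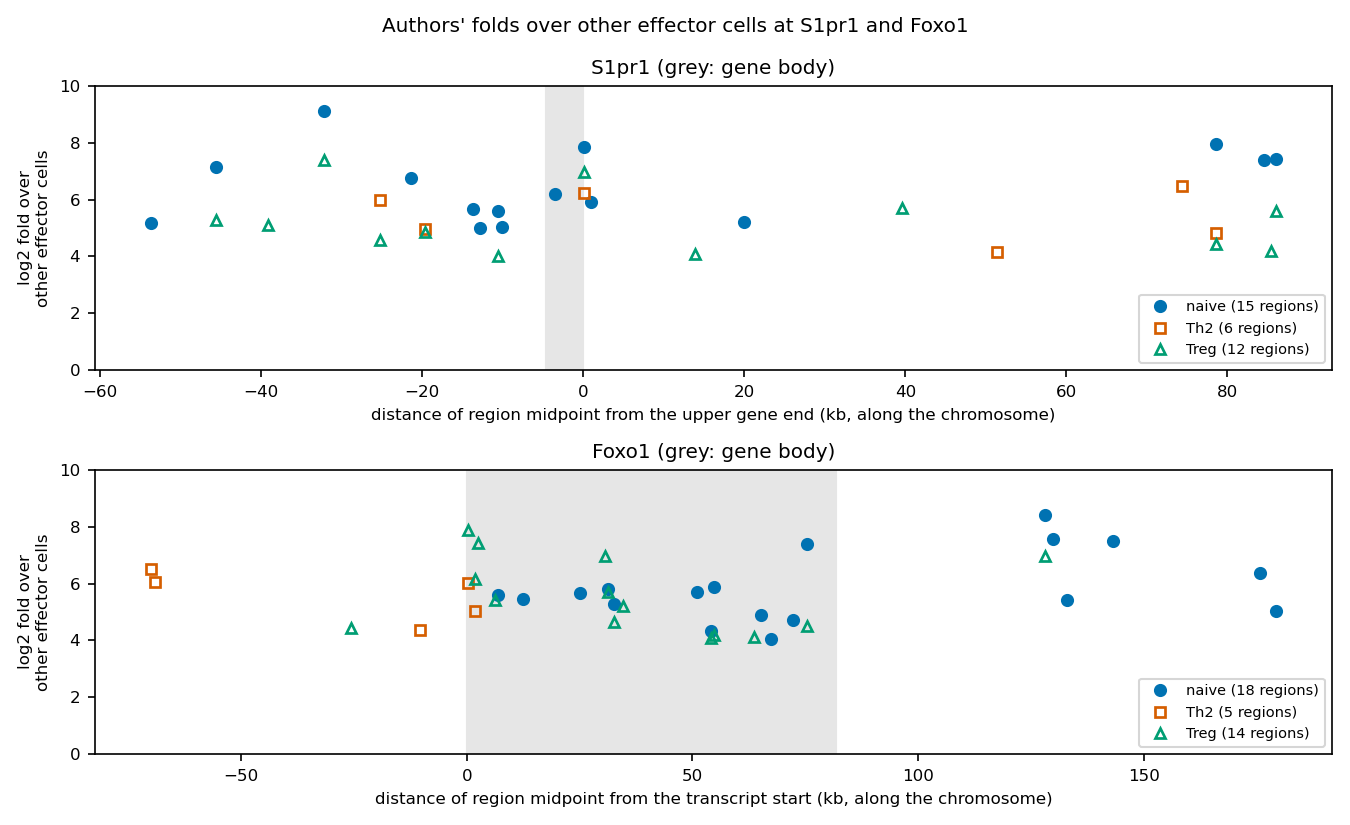
Log2 fold over other effector cells (vertical axis) of each listed region of S1pr1 and Foxo1 against the distance of its midpoint along the chromosome (horizontal axis, kb), from the upper gene end for S1pr1 and from the transcript start for Foxo1, with the gene body in grey. At Foxo1 the 5 Th2 points lie between -69.9 and 1.9 kb and the 18 naive points between 7.0 and 179.2 kb. How often this occurs at other genes was not counted. At S1pr1 the populations are interspersed.

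Foxo1 (gene ID 56458, chromosome 3, 52268337 to 52350109), the forkhead factor gene, had most regions of the 5 genes, 29, of which 19 lay inside it. Naive cells in the authors' deposited tables were higher than other effector cells at 18 regions (folds 4.04 to 8.40, median 5.64), Treg cells at 14 (folds 4.07 to 7.88) and Th2 cells at 5 (folds 4.36 to 6.50). These were 62.1%, 48.3% and 17.2% of Foxo1 regions, against 33.7%, 46.7% and 53.2% of all regions. The positions of the naive and Th2 regions are given as a description, because how often such a separation occurs at other genes was not counted. Counting only rows inside the gene left 2 of the 5 Th2 rows and 12 of the 18 naive rows. All 5 Th2 regions lay between 69935 bp before the transcript start and 1903 bp after it, and all 18 naive regions between 7030 and 179186 bp after it. Treg regions spanned both, from 25704 bp before to 128040 bp after the start. The region over the Foxo1 promoter, 52267609 to 52269674, was 2066 bp wide. Treg cells were 7.88 and Th2 cells 6.01 above other effector cells there. This region was listed in no comparison with naive cells, so their level there is not known. Beside it, 52270053 to 52270427 was 6.17 higher in Treg and 5.03 higher in Th2 cells. Over the whole series, regions within 1 kb of a gene end were listed as higher in naive than other effector cells at 16.0%, against 38.6% of regions farther away, and as higher in Th2 than other effector cells at 71.9%, against 48.0%. At Foxo1, 1 region lay within 1 kb of a gene end, the one over the promoter. The nearest of the other 4 Th2 regions lay 1903 bp after the start. The part of this series-wide difference in the Foxo1 positions was not tested.

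In the authors' deposited table of naive and Th2 cells, 7 regions inside or beyond Foxo1 were higher in naive cells, with folds of 4.17, 4.51, 5.22, 5.79, 5.86, 6.48 and 8.59. The highest of these, 52395965 to 52396788, lay 46268 bp beyond the gene, with naive cells 8.40 above other effector cells. Treg cells were 6.97 above other effector and 7.15 above Th2 cells at 52396065 to 52396747 within it, so that naive and Treg cells shared this region and Th2 cells were at the base. A second region separated Treg from Th2 cells, at 52270554 to 52270919 in the first part of the gene, with Treg cells 6.09 above Th2 and 7.43 above other effector cells. The interval 52302871 to 52303118 inside the gene was the only member region higher in Treg than naive cells, with a fold of 5.39, and was 5.22 higher in Treg than other effector cells. At the far end, 52447360 to 52447686 was higher in naive cells by 5.04 over other effector, 5.22 over Th2 and 3.96 over Treg cells.

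Klf2, the quiescence factor gene (gene ID 16598, chromosome 8, 72319062 to 72321654), was accessible over other effector cells in all 3 remaining populations at its promoter. The authors' deposited tables put naive cells 8.96 above other effector cells at 72318544 to 72319674, and Treg and Th2 cells 7.94 and 7.78 above them at 72318589 to 72319492. Treg minus Th2 was 0.16 there by subtraction, and no comparison among the 3 listed the region. A region 23136 bp before the gene, at 72295551 to 72296301, was likewise above other effector cells in naive (6.75), Th2 (6.33) and Treg cells (5.23). Of 6 Klf2 regions, 5 were higher in naive, 4 in Th2 and 2 in Treg than other effector cells. These were 83.3%, 66.7% and 33.3%, against 33.7%, 53.2% and 46.7% of all regions. Just beyond the gene, 72322372 to 72322798 was 7.32 higher in Th2 than other effector cells with no other row, and 72324127 to 72324931 was 7.23 higher in naive than other effector cells with no other row. The only Klf2 region listed among naive, Th2 and Treg cells was 72291104 to 72291512, 27754 bp before the gene, where naive cells were 6.02 above Th2 and 5.84 above other effector cells.

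Il7r (gene ID 16197, chromosome 15, 9506159 to 9529941), the interleukin 7 receptor gene, was the member with no row in any comparison among naive, Th2 and Treg cells. Its 10 rows lay in 6 regions, 5 with midpoints in the part of the gene nearest to its start and 1 before the start. At the promoter, the authors' deposited tables put naive cells 7.01 above other effector cells (9529695 to 9530051), and Th2 and Treg cells 6.11 and 5.84 above them (9529765 to 9530022). Th2 cells were higher than other effector cells at 5 of the 6 regions (83.3%, against 53.2% of all regions), Treg cells at 3 (50.0%, against 46.7%) and naive cells at 2 (33.3%, against 33.7%). The region at 9533273 to 9533805, 3598 bp from the gene end, was 6.86 higher in Treg and 5.35 higher in Th2 cells, and that at 9527953 to 9528925 inside the gene 6.47 and 5.54 higher. Deeper in the gene, 9523171 to 9523320 and 9523984 to 9524337 were listed for Th2 cells alone, at 5.01 and 5.93, and 9526511 to 9526715 for naive cells alone, at 4.68. By subtraction, Treg minus Th2 was 1.51, 0.93 and -0.27 at the 3 intervals listed for both, all below that smallest listed fold of 3.95.

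**Figure D4:**
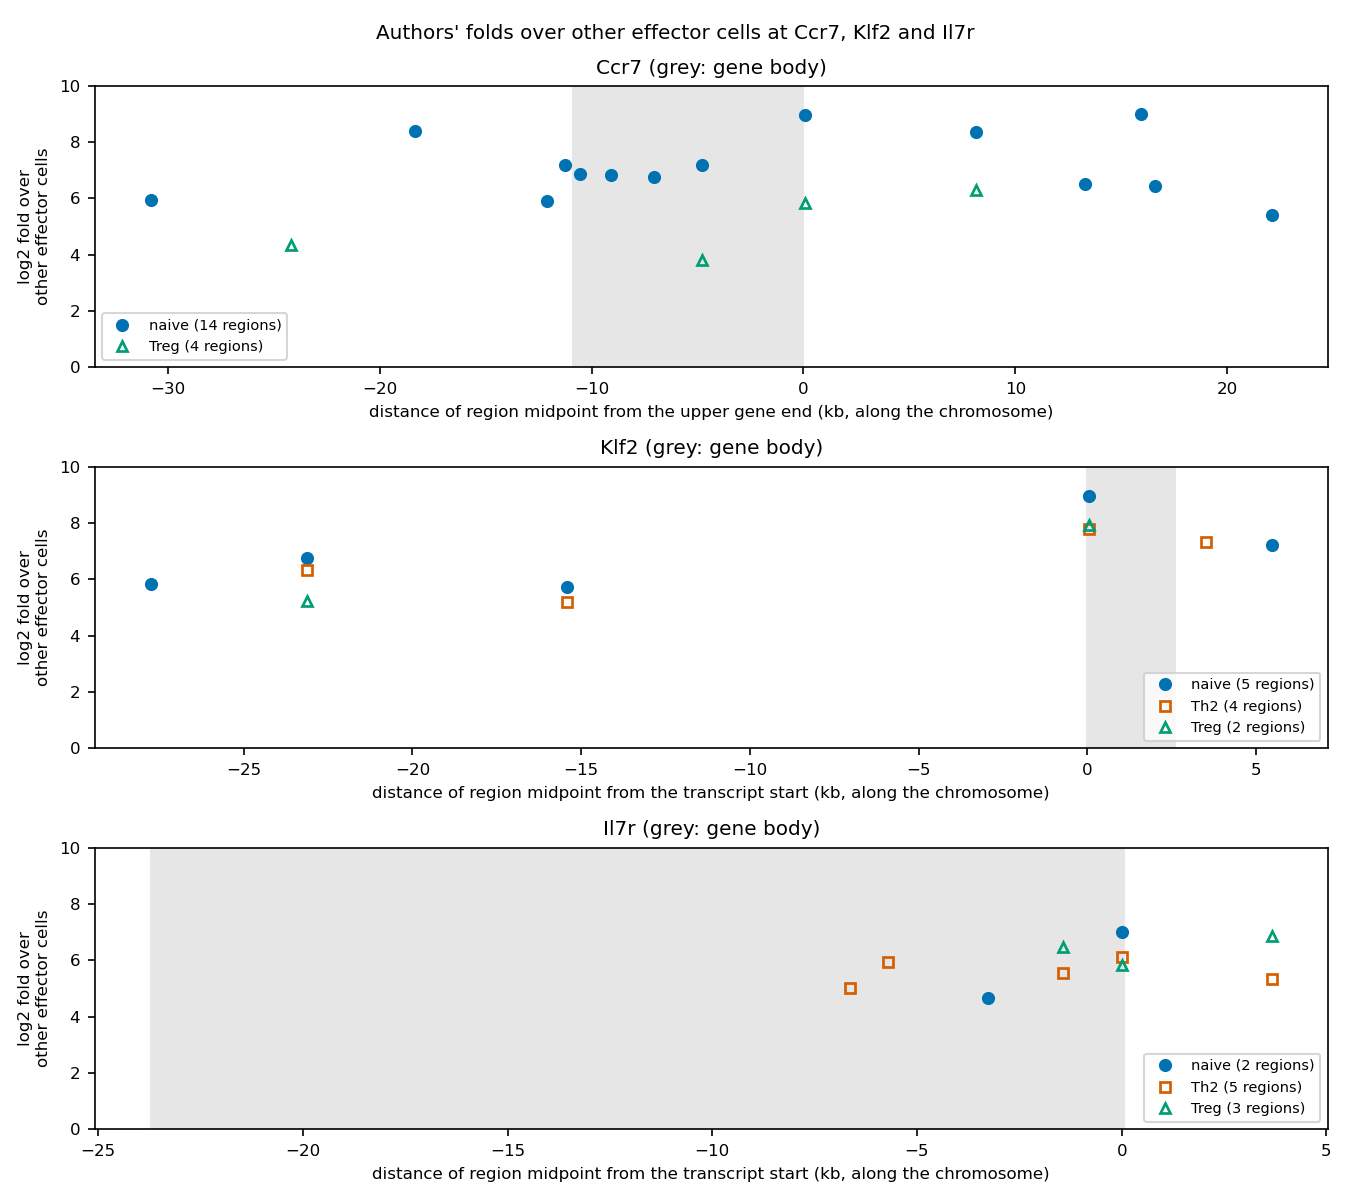
Log2 fold over other effector cells (vertical axis) of each listed region of Ccr7, Klf2 and Il7r against the distance of its midpoint along the chromosome (horizontal axis, kb), from the upper gene end for Ccr7 and from the transcript start for Klf2 and Il7r, with the gene body in grey. Ccr7 has 14 naive, 4 Treg and 0 Th2 points, whereas at the starts of Klf2 and Il7r all 3 populations have a point.

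The members that held the rows thus differed among the direct comparisons of naive, Th2 and Treg cells. Of the 18 naive over Th2 rows, 7 were at Ccr7, 7 at Foxo1, 3 at S1pr1 and 1 at Klf2, and of the 8 naive over Treg rows 6 were at Ccr7 and 1 each at S1pr1 and Foxo1. The 5 rows higher in Treg than Th2 cells had folds of 4.41 at Ccr7, 4.92 and 5.78 at S1pr1, and 6.09 and 7.15 at Foxo1. These comparisons share their populations, so their counts are not independent of each other.

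**Figure D5:**
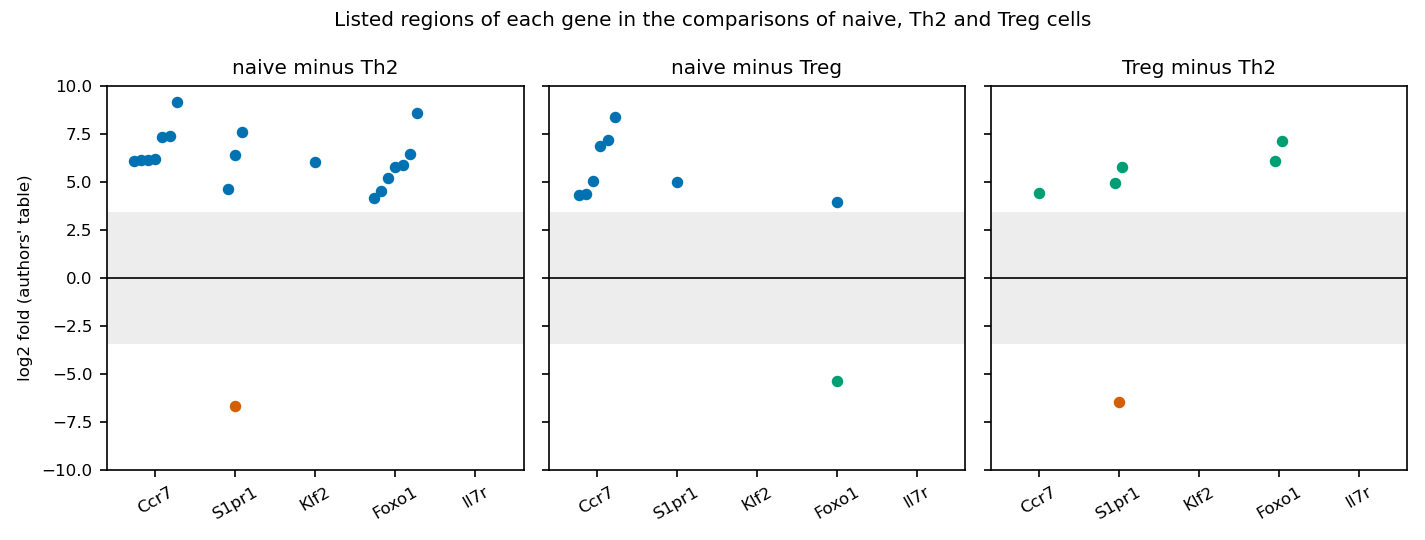
Log2 folds (vertical axis) of member regions listed in the 3 comparisons among naive, Th2 and Treg cells, with 1 point per region coloured by the higher population (blue naive, orange Th2, green Treg) and grey where no table holds a fold. The 18 blue points of naive minus Th2 stand against 1 orange point at -6.66, at S1pr1.

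A list of 49 further genes of homing, KLF and forkhead factors, IL-7 signalling, quiescence and the PI3K and Akt arm was read in the same way, gene by gene. In naive over other effector cells 36 of the 49 genes (73.5%) had at least 1 row, against 29.8% of all 21900 genes, and in naive over Th2 cells 23 (46.9%), against 11.7%. The opposite direction, Th2 over naive cells, held 18 (36.7%), against 13.6%. In naive over Treg cells 19 genes (38.8%) had a row, against 8.38%, and in Treg over naive cells 10 (20.4%), against 9.64%. Th2 over other effector cells held 39 (79.6%), against 52.5%, and Treg over other effector cells 42 (85.7%), against 48.7%. In Treg over Th2 cells 13 (26.5%) had a row, against 5.66%, and in Th2 over Treg cells 17 (34.7%), against 10.3%. Longer genes draw more rows, and the list was not matched for length, so these shares are a description.

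Homing genes of the list differed in direction among naive, Th2 and Treg cells. Gpr183, an oxysterol receptor that positions lymphocytes, had 2 rows higher in naive than Th2 cells, the largest 8.24. Rgs1, which dampens chemokine receptor signalling, ran the other way, with 5 rows in Th2 and 4 in Treg over naive cells, the largest 6.99 and 6.72, and 0 higher in naive cells. Cxcr4, a chemokine receptor, had 2 rows in naive over Th2 and 2 in Th2 over naive cells. Cd69, whose product binds S1PR1 and holds cells in tissue, had 9 rows in Th2, 10 in Treg and 3 in naive over other effector cells. In the direct comparisons it had 1 row higher in naive than Th2 cells and 1 higher in naive than Treg cells. Between Treg and Th2 cells it had 1 row, higher in Th2 cells by 5.43. It had 0 rows in Th2 or Treg over naive cells.

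Among the transcription factors, Foxp1, a forkhead factor of naive T cells, had 55 rows higher in naive than other effector cells, 25 higher in naive than Th2 cells and 3 lower, and 7 higher in naive than Treg cells and 3 lower. It also had 28 rows in Th2 and 34 in Treg over other effector cells. Klf13 had 8 rows higher in naive than Th2 cells and 1 lower. Klf6, another KLF family gene, had 6 rows in Th2 and 6 in Treg over naive cells, the largest 8.17 and 7.02, and 1 lower in each comparison. It also had 4 rows higher in Th2 than Treg cells and 1 lower. Of the survival and quiescence genes, Btg1, an antiproliferative gene, had 10 rows higher in naive than Th2 cells and 1 lower, Bcl2 7 higher and 2 lower, and Jak1, which signals below IL7R, 6 higher and 0 lower. Bcl2 also had 7 rows higher in naive than Treg cells. Slfn2, of the quiescence genes, had 2 rows higher in Th2 than Treg cells, the largest 8.11. It also had 2 rows in Th2 and 2 in Treg over naive cells, the largest 8.28 and 7.44, and 0 in naive over either. Of the 9 IL-7 signalling and survival genes, 4 had a row in naive over Th2 and 3 in Th2 over naive cells. Of the 9 quiescence genes, 4 and 2 did, against 11.7% and 13.6% of all genes. Phlpp1, a phosphatase of Akt, had 4 rows in Th2 and 4 in Treg over naive cells. In naive over Th2 cells Phlpp1 had 2 rows and in naive over Treg cells 0. Pik3r1, a regulatory subunit of PI3K, had 12 rows in naive, 13 in Th2 and 17 in Treg over other effector cells. The stromal ligand genes Ccl19, Ccl21a and Il7 had 0 rows higher in naive cells in any comparison, while Il7 had 2 rows in Th2 over naive cells, the largest 5.62.

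Likeness of genes was measured as the Bray-Curtis similarity of their row counts over the 9 comparisons and directions that hold rows, among 14086 genes with a row, where 1 means equal counts. The genes most like Ccr7 were Sorcs2 (0.897), Pakap (0.896) and Myo10 (0.892), those most like S1pr1 were Map4k4 (0.897), Sipa1l1 (0.897) and Fli1 (0.886), and those most like Foxo1 were Ripor2 (0.907), Bcl11b (0.905) and Gm52008 (0.889). For Klf2 they were Adnp (0.957), Smurf1 (0.923) and Acsl4 (0.917). Il7r, with few rows, had the same counts as Gm41291, Tef and Zfp213, the first of several genes by name. No member was among the 3 genes most like another member.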

How the data were processed

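ATAC-seq of 4 sorted T helper populations was summarised by the submitters as 6 tables of differential regions. Each of the deposited tables holds chromosome, start, end and a fold, read as log2 and as first-named minus second-named population. Per the submitters' processing notes they come from DiffBind on build mm9; the aligner, peak caller, normalization and threshold are not stated there. The coordinates match GRCm38: 21.9% of merged regions lay within 1 kb of a GRCm38.p6 gene end, against 4.20% to 6.16% after shifts of 10 to 1000 kb. Folds of 3 populations added up with a residual of 0.00 at the 1 and 3 intervals that allow it. Day 15 follows the titles, although D10 stands in the descriptions of 2 populations.

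Rows were assigned to 21900 protein-coding genes and merged in Python 3.11.15. Assignment and merging were tested on simulated data. No sample-level test was possible, so members are described by counts, folds and the share of all regions or genes listed. Always named were the 5 members, of the pathway list the 3 genes with most rows per direction, per member the 3 most alike genes, and genes holding rows within 50 kb of a member; Gpr183, Cxcr4, Cd69 and the stromal ligand genes were named after their values were seen. Some genes of the lists are not reported here. Members, lists and tests were chosen with earlier results of these data known.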

Additional observations from a re-analysis of the deposited data

How the results depend on the processing

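No paired analysis was possible because the tables give 1 fold per region and no replicate values, and no replicate could be left out for the same reason. Directions cannot reverse under these alternatives, which change only which rows count. Assigning rows only within 10 kb of a gene end left 32 of 54 member rows in naive over other effector cells, 10 of 18 in naive over Th2, 5 of 8 in naive over Treg, 10 of 20 in Th2 over other effector, 22 of 36 in Treg over other effector and 2 of 5 in Treg over Th2 cells, and 0 in Th2 over naive and Th2 over Treg cells. Counting rows inside the genes only left 20, 6, 1, 7, 17 and 1 of the first 6 counts and again 0 and 0. Requiring a fold of at least 5 in size left 5 rows in naive over Treg, 22 in Treg over other effector and 3 in Treg over Th2 cells. Taking any row within 50 kb of a member, whatever its nearest gene, gave 4 rows in Treg over naive and 0 in Th2 over Treg cells, and the 7 other counts stayed within 1.5 times. For the list of 49 genes, 10 kb left 20 of 40 rows in Th2 over naive, 57 of 86 in naive over Th2, 12 of 27 in Treg over naive and 22 of 37 in naive over Treg cells. Merging only at a reciprocal overlap of 50% gave 89 member regions in place of 79. Without the tables of other effector cells, an alternative chosen after seeing the data, 25 remained. Fewer rows or tables counted set these changes by construction. Depth is unknown, so whether a region missing from a table reflects too few reads was not tested.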

Other observations

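Genes beside the members held rows that a window of 50 kb, whatever the nearest gene, would have given to a member. Within 50 kb of Klf2, 9 rows higher in naive than other effector cells and 6 higher in naive than Th2 cells lay inside or nearest to Eps15l1, an endocytic adaptor gene. Eps15l1 also had 3 rows higher in Treg than Th2 cells. Ap1m1 had 3 and 2 such rows in naive over other effector and naive over Th2 cells. Counting all rows within 50 kb, Klf2 would have 17 rows in place of 5 in naive over other effector cells and 9 in place of 1 in naive over Th2 cells, so the small number of Klf2 rows depends on the assignment.

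Within 50 kb of Il7r, Spef2 had 6 rows higher in Th2 than other effector cells, 1 higher in Th2 than naive cells, and 1 in each direction between naive and Treg cells. Rows among naive, Th2 and Treg cells thus lay within 50 kb of Il7r, although none was assigned to it. Within 50 kb of Ccr7, Smarce1, a chromatin remodelling subunit gene, had 5 rows higher in Th2 than other effector cells, whereas Ccr7 had 0. Tns4 had 2 rows higher in naive than Th2 cells. Smarce1 and Tns4 each had 1 row higher in Treg than naive cells there, a direction in which 0 rows were assigned to Ccr7. No row within 50 kb of S1pr1 or Foxo1 went to another gene.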
